A study of Mus musculus with 12 samples.

Results

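Polysome mRNA of mouse neural stem cells (NSCs) kept in high folic acid (HF, 80 µM) was compared with polysome mRNA of NSCs kept in low folic acid (LF, 1.5 µM), over all genes. The comparison takes 4 of the 12 libraries of the series, picked by their labels: polysome HF replicates 1 and 2 and polysome LF replicates 1 and 2. All came from wild-type (WT) male C57BL/6 mice of 6 to 8 weeks, whose NSCs were taken from the subventricular zone (SVZ), the adult niche along the lateral ventricles, grown with EGF and bFGF and kept in the folic acid dose for 4 days. Cells of both doses were treated with cycloheximide, which freezes ribosomes on mRNA, and the sucrose gradient fractions that carried more than 3 ribosomes per mRNA were pooled before poly(A) selection. The other libraries are a medium dose (MF, 10 µM) and total mRNA of each dose. The labels call the replicates biological and do not say whether they are separate animals or cultures, so p-values measure only the spread between these libraries. A dissociated culture with added growth factors may not hold the other cells of the niche as the tissue does. The gradient pool does not separate an mRNA with few ribosomes above the limit from one with many.

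In polysome profiling, an mRNA is counted in proportion both to its abundance and to the share of its copies that carry many ribosomes. Folate carries single-carbon units for purine, thymidylate and methionine synthesis, and methionine supplies the methyl group of RNA cytosine methylation (m5C). Some mRNAs are known for control at the ribosome, among them mRNAs of the transcription factor ATF4 and of its stress partners, whose upstream reading frames let them load ribosomes when the factor eIF2 is phosphorylated, and mRNAs of ribosomal proteins and translation factors, whose loading follows growth signals through mTOR.

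The cells had the markers of the culture they are labelled as. Nes, the intermediate filament nestin, was at 474 and 368 CPM (the count relative to the library total, scaled by TMM over the polysome libraries) in HF, against 398 and 240 CPM in LF, and Sox2, a transcription factor of self-renewal, was at 119 and 110 CPM in HF against 155 and 216 CPM in LF. Of 14 microglial markers, 7 (Aif1, Cx3cr1, C1qa, C1qc, Trem2, Tyrobp and Fcrls) had no count in any polysome library, and the 12 endothelial markers summed to 11 and 10.7 CPM in HF and 7.93 and 9.6 CPM in LF. Several mural and mesenchymal markers were present as well, and their values are given below. In bulk RNA, fewer cells of a type and less RNA per cell cannot be told apart.

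The LF libraries stood apart from each other. Depth was alike in the 6 polysome libraries (24193468 to 28170296 counts), yet 21% of tested genes differed by more than 2-fold between the LF replicates, against 3.31% between the HF replicates and 3.42% between the MF replicates. Along the leading axis of a principal component analysis of these 6 libraries, which held 50.6% of the variance, LF replicate 2 lay at 83.5 and the other 5 libraries lay between -35.1 and -2.85. The difference ran along the GC content of the transcripts. Relative to the MF mean, the Spearman correlation across 13355 genes between the level of a gene and its GC content, a description over genes that share a library, was -0.48 and -0.5 in the HF libraries, -0.15 in LF replicate 1 and -0.78 in LF replicate 2. Once the GC trend of each library was removed, 6.32% of genes differed by more than 2-fold between the LF replicates.

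**Figure D1:**
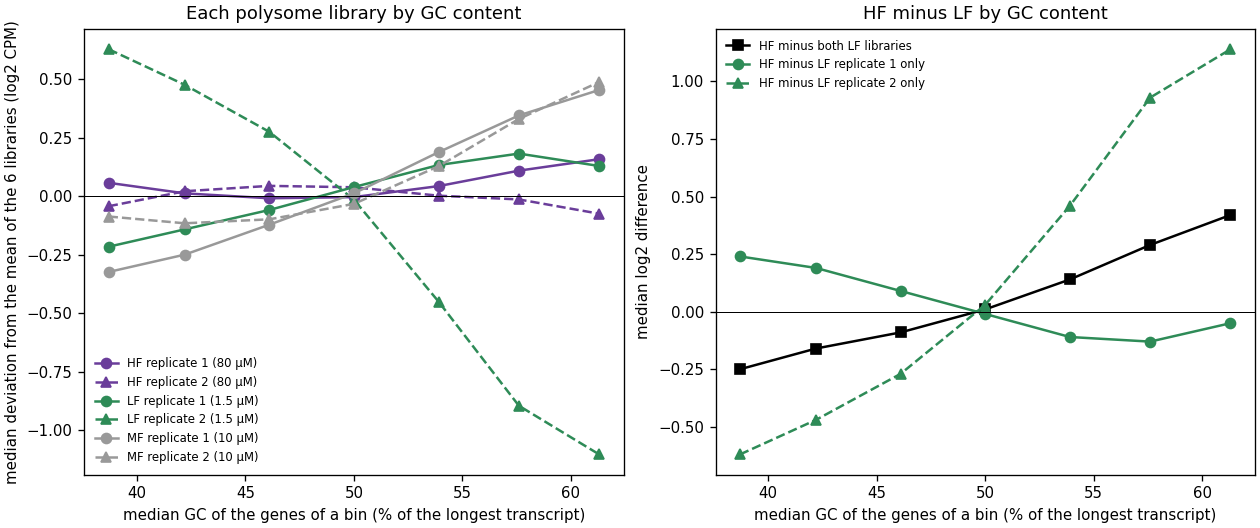
Left, median deviation of each polysome library from the mean of the 6 (log2 CPM) in 7 bins of transcript GC content, with HF in purple, LF in green and MF in grey. Right, median log2 difference of HF minus both LF libraries (black) and minus each LF library alone (green): it runs from -0.25 under 40% GC to 0.42 over 60% GC against both, from -0.62 to 1.14 against LF replicate 2, and from 0.24 to -0.05 against LF replicate 1.

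Which LF library is used therefore changes the answer for whole classes of genes, and the median of each list is given against both LF libraries and against each alone, while single genes are given by their values in both. In the bin of genes over 60% GC, the median log2 difference was 0.42 against both LF libraries, -0.05 against LF replicate 1 and 1.14 against LF replicate 2. In the bin under 40% GC it was -0.25 against both, 0.24 against LF replicate 1 and -0.62 against LF replicate 2. A second fit, added after these trends were seen, removed a smooth GC trend from each library. It also takes away any difference between doses that follows GC content, so its counts are set beside those of the main fit and do not replace them.

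Of 13433 genes tested with edgeR, 2 (0.0149%) passed an adjusted p of 0.05 and a fold change of 1.2, both higher in HF. No gene was called lower, while 1028 genes (7.65%) lay higher and 854 (6.36%) lower at an unadjusted p under 0.05, and DESeq2 called 335 genes (2.8%), 213 higher (1.78%) and 122 lower (1.02%). In 2919 genes (21.7%) both HF libraries lay above both LF libraries, and in 2668 (19.9%) both lay below. The counts without overlap in the lists below are to be read beside these shares. The median log2 difference of all genes tested was 0.01, and the biological coefficient of variation was 0.231. Without the GC trend this coefficient was 0.143, and 1001 of 13355 genes (7.5%) were called, 483 higher (3.62%) and 518 lower (3.88%). Against LF replicate 1 alone, edgeR called 2117 genes (15.4%), 1097 higher (7.96%) and 1020 lower (7.4%), and against LF replicate 2 alone it called 5438 (39.3%), 3138 higher (22.7%) and 2300 lower (16.6%). A lone LF library has no spread of its own in those fits and is taken to vary as the HF and MF replicates do, so the single-library counts are read as descriptions. Below, a gene is said to have risen or fallen only where it passed in the main fit, and other genes are given by their values.

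The called genes are both noncoding and both uncertain. Prss23os (chr7:89510007-89511873, mm10), annotated antisense to the protease gene Prss23, had 1340 and 1284 counts in the HF libraries and 0 and 0 counts in the LF libraries. It rose at least 852-fold in HF against a floor of 3 counts over the LF group (adjusted p = 0.00077). MF held 830 and 944 counts, and total mRNA held 583 and 610 counts in HF and 527 and 780 counts in LF, so the zeros stood in LF polysomes alone of these groups. Prss23 itself, which overlaps it, had 385 and 401 CPM in HF and 384 and 385 CPM in LF. The processed pseudogene Gm8203 (chr6:116173737-116174123), inside Tmcc1 on the other strand, had 981 and 617 counts in HF and 0 and 0 counts in LF, at least 519-fold against the same floor (adjusted p = 0.00302). Its total mRNA counts were 672 and 659 in HF and 465 and 815 in LF. Reads that fit several genes were shared out by likelihood when the tables were made, and no read-level data were used here to check these zeros.

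Among protein-coding genes, the 12 with the smallest p-values in each direction held several members of the ATF4 response, ribosomal proteins and respiratory chain subunits on the higher side, and cell cycle, RNA processing and neural transcription factor genes on the lower side. None of these 24 passed in the main fit, with adjusted p between 0.132 and 0.167.

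**Figure D2:**
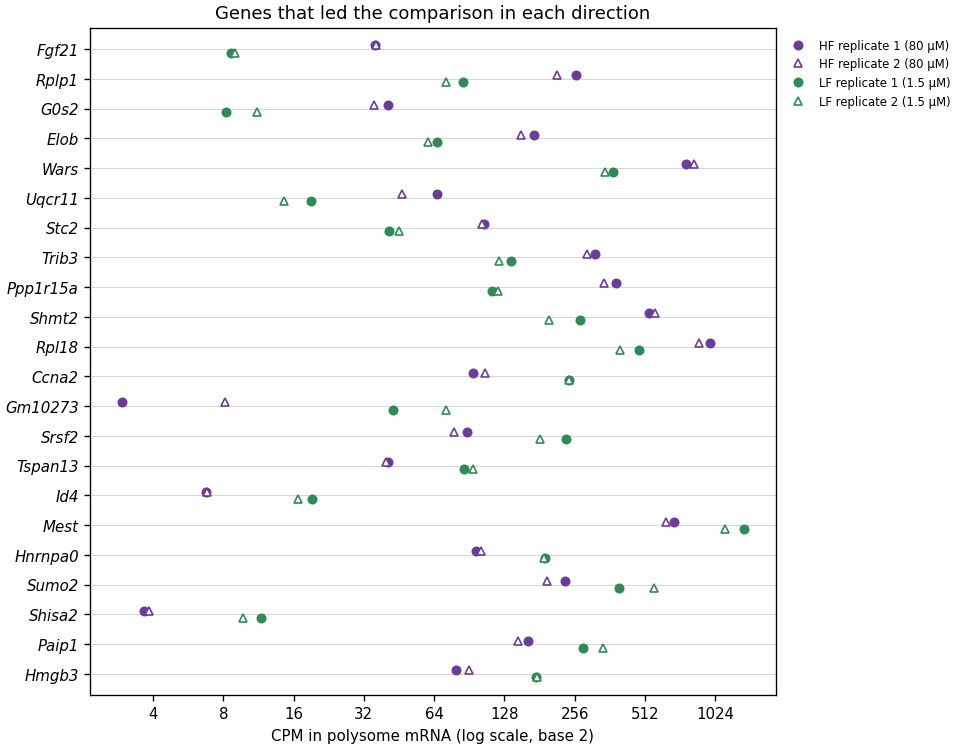
CPM in polysome mRNA (log axis) of protein-coding genes among the 12 with the smallest p-values on each side, with HF in purple and LF in green, circles for replicate 1 and triangles for replicate 2. The groups do not overlap in any of them, as the selection required: Fgf21 at the top has 35.8 and 36.1 CPM in HF against 8.64 and 8.94 in LF, and Hmgb3 at the bottom 79.1 and 90.4 in HF against 175 and 177 in LF.

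The ATF4 and amino acid response had the highest median of the 45 gene lists. Of its 35 genes, 35 were tested, 35 had a positive difference and 28 had both HF libraries above both LF libraries, none below. The lists and their members were chosen with earlier results of these data known, so this rank and these counts are descriptions. The list median was 0.86 on the log2 scale, against 0.01 over all genes tested, 0.95 against LF replicate 1 and 0.81 against LF replicate 2. No member passed in the main fit, 25 had an unadjusted p under 0.05, and 16 were called higher with the GC trend removed (median 0.68).

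Fgf21, a secreted metabolic hormone, was at 35.8 and 36.1 CPM in the HF libraries, against 8.64 and 8.94 CPM in the LF libraries, and the MF libraries were at 25.7 and 33.2 CPM. Both LF values lay at a similar low level, and the groups did not overlap (log2 difference 2.03 ± 0.247 SE, adjusted p = 0.132). Its difference was 2.06 against LF replicate 1, 1.98 against LF replicate 2, and 1.79 with the GC trend removed (adjusted p = 0.00668). Ddit3, which encodes CHOP, a factor of prolonged stress, was at 500 and 442 CPM in HF and 93.4 and 176 CPM in LF. Here the LF libraries differed from each other but both lay far below HF (1.80 ± 0.31 SE, adjusted p = 0.158, and 1.94 with the GC trend removed, adjusted p = 0.00325). Ppp1r15a, which encodes the eIF2 phosphatase subunit GADD34, was at 385 and 342 CPM in HF against 113 and 120 CPM in LF, and Trib3, a pseudokinase that binds ATF4, was at 314 and 289 CPM in HF against 137 and 122 CPM in LF. The adjusted p was 0.155 for both in the main fit. Neither was called once the GC trend was removed, at 0.0607 for Ppp1r15a and 0.095 for Trib3. Stc2, a secreted glycoprotein, was at 105 and 102 CPM in HF and 40.9 and 45.3 CPM in LF, and was called higher with the GC trend removed (adjusted p = 0.00626). Chac1, which breaks down glutathione, was at 161 and 141 CPM in HF and 67 and 51.9 CPM in LF.

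Atf4 itself was at 1252 and 1251 CPM in HF, against 537 and 975 CPM in LF. The distance between its LF libraries was larger than that of LF replicate 2 from HF, and the difference was 1.22 against LF replicate 1 and 0.34 against LF replicate 2 (0.73 ± 0.269 SE against both, adjusted p = 0.298). Removal of the GC trend left 0.30 (adjusted p = 0.764), and -0.30 with LF replicate 1 also left out. Some transporters and enzymes of the list also had LF libraries far apart. Slc7a11, the cystine importer, was at 151 and 171 CPM in HF and 51.7 and 141 CPM in LF, and Asns, asparagine synthetase, was at 1060 and 1316 CPM in HF and 608 and 1095 CPM in LF, so that HF and LF overlapped in Asns. Slc3a2, the heavy chain of several amino acid transporters, had closer LF values, 984 and 853 CPM, with 1739 and 1809 CPM in HF. Psat1, a serine synthesis enzyme, overlapped between the doses, at 1315 and 1605 CPM in HF and 1162 and 1433 CPM in LF.

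**Figure D3:**
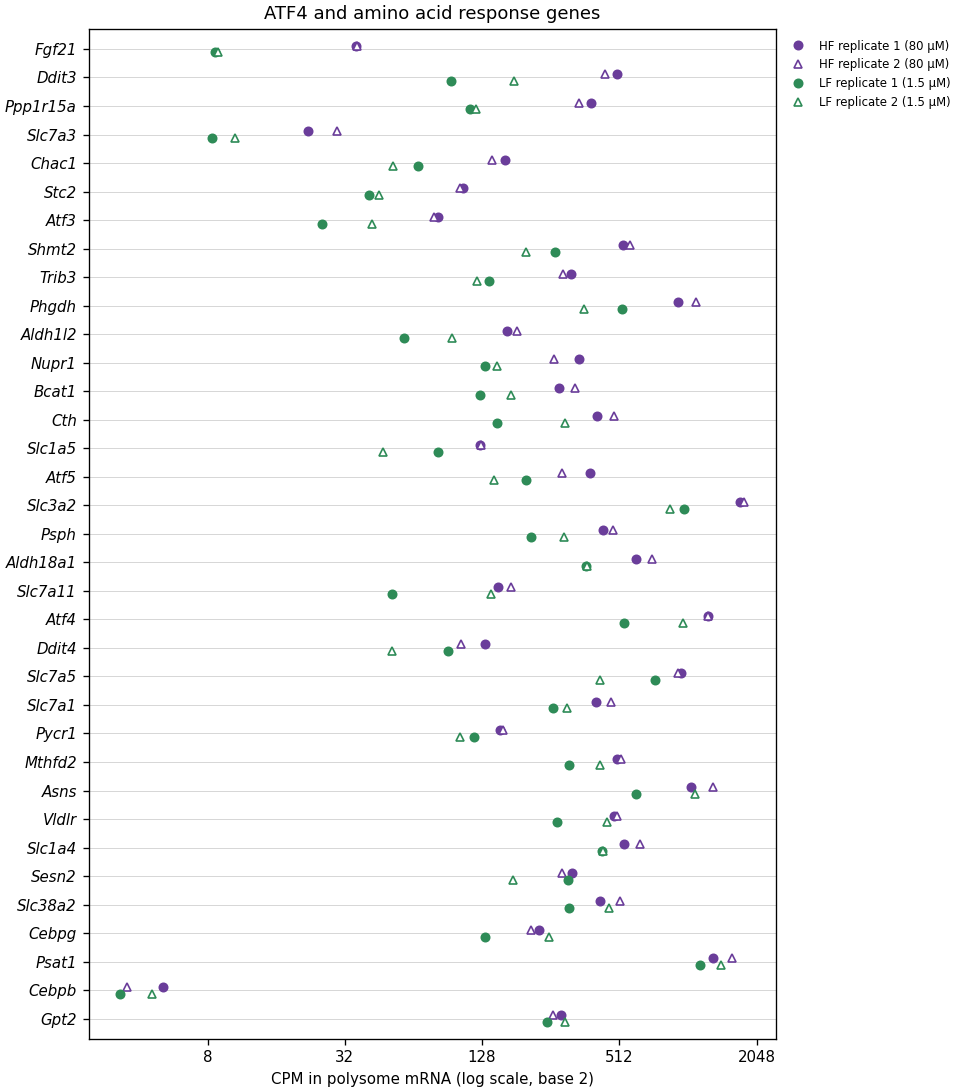
CPM in polysome mRNA (log axis) of the 35 genes of the ATF4 and amino acid response list, ordered by the log2 difference of HF minus LF, with HF in purple and LF in green, circles for replicate 1 and triangles for replicate 2. From Fgf21 at the top (log2 difference 2.03) to Gpt2 at the bottom (0.01), 28 genes have both HF points right of both LF points.

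Total mRNA was first set beside this for 3 members, which do not stand for the whole list. Ddit3 was at 9.44 and 8.63 CPM in total mRNA of HF, against 8.51 and 10.7 CPM in total mRNA of LF, and Trib3 was at 0.827 and 1.21 CPM in HF and 1.24 and 1.53 CPM in LF. Asns was at 22.5 and 25.8 CPM in total HF mRNA and 25.5 and 26.9 CPM in total LF mRNA. HF and LF overlapped in total mRNA of Ddit3 and Asns, and HF lay below LF in that of Trib3, where the values were near the floor. The polysome values of both doses were far above the total mRNA values in all 3. Fgf21 had too few counts in total mRNA to pass the filter there. Some other members lay higher in HF in total mRNA too. Slc7a11 was at 29.8 and 25.25 CPM in total HF mRNA and 18.3 and 13.7 CPM in total LF mRNA. Nupr1 was at 11.5 and 12.65 CPM in total HF mRNA and 10.0 and 8.32 CPM in total LF mRNA. CPM was scaled within each fraction, and the labels do not say whether both fractions came from the same dishes.

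ATF4 with a C/EBP partner is known to bind the element TGATGNAA in front of amino acid response genes. RefSeq promoters (GRCm38.p6, 250 bases before to 50 after each start) were on hand for 30 of the 35 genes, and 10 of these 30 genes held at least one match on either strand. By promoter, 10 of 35 (28.6%) held it, against 1304 of 32851 promoters of all genes (3.97%), 0 of 42 promoters of large ribosomal subunit genes and 1 of 43 promoters of mitosis genes (2.33%). The windows are shown for 7 members whose polysome values are given in the text or the plot, on the strand of the match with the element in capitals:
Fgf21 (chr7:45615611-45615640, + strand): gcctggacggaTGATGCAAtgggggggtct
Trib3 (chr2:152344028-152344057, + strand): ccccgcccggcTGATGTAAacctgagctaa
Chac1 (chr2:119351038-119351067, - strand): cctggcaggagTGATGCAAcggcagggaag
Nupr1 (chr7:126625562-126625591, + strand): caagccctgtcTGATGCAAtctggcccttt
Atf3 (chr1:191183425-191183454, + strand): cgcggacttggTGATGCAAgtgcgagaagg
Asns (chr6:7693214-7693243, - strand): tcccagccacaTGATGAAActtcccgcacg
Slc7a11 (chr3:50443661-50443690, - strand): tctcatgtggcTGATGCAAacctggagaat
The 10 genes with a match had a median log2 difference of 0.93 (1.15 against LF replicate 1, 0.74 against LF replicate 2), with 9 not overlapping. The 20 with no match had a median of 0.78 (0.79 against LF replicate 1, 0.78 against LF replicate 2), with 14 not overlapping, and the 5 with no promoter record had 1.01 (1.58 against LF replicate 1, 1.14 against LF replicate 2), with 5 not overlapping. Genes with a match thus lay above those with none against LF replicate 1 and below them against LF replicate 2, and no difference by match was tested. A match is a description of the letters and not a sign of binding. The list was made of genes of the ATF4 and amino acid response, for which this element is known. Its larger share of matches than over all promoters therefore says nothing about HF against LF.

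The next list held aminoacyl-tRNA synthetases, which charge tRNAs with amino acids and include several ATF4 targets, and the partner proteins Aimp1, Aimp2 and Eef1e1. Of 23 tested, 19 had both HF libraries above both LF libraries and 0 below, 13 had an unadjusted p under 0.05, and the median was 0.55 (0.66 against LF replicate 1, 0.39 against LF replicate 2). None passed in the main fit and 7 were called higher with the GC trend removed. Wars, the enzyme for tryptophan, was at 769 and 830 CPM in the HF libraries and 374 and 344 CPM in the LF libraries, with no overlap (1.15 ± 0.165 SE, adjusted p = 0.142, and 0.0112 with the GC trend removed). Sars, the enzyme for serine, was at 967 and 1119 CPM in HF and 519 and 564 CPM in LF, and Eprs, the enzyme for glutamate and proline, at 569 and 670 CPM in HF and 244 and 451 CPM in LF. In all 3 enzymes the groups did not overlap, and the LF libraries were farthest apart in Eprs.

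Folate and single-carbon enzymes lay on both sides. Of 35 tested, 12 had both HF libraries above both LF libraries and 5 below, where the shares over all genes tested were 21.7% and 19.9%. The median was 0.17 (0.06 against LF replicate 1, 0.21 against LF replicate 2). At an unadjusted p under 0.05, 9 were higher and 3 lower, and 7 were called higher and 2 lower with the GC trend removed. Of those higher, Shmt2, which splits serine in the mitochondrion, was at 534 and 568 CPM in HF against 269 and 199 CPM in LF (1.24 ± 0.198 SE, adjusted p = 0.155, and 0.0238 with the GC trend removed). Phgdh, the first enzyme of serine synthesis, was at 929 and 1108 CPM in HF and 528 and 359 CPM in LF, and Aldh1l2, which oxidises mitochondrial formyl-folate, at 164 and 183 CPM in HF and 58.1 and 94.3 CPM in LF. Several of these enzymes are also members of the ATF4 list, so the lists are not separate counts. Of those lower, Tyms, thymidylate synthase, was at 73.8 and 78.7 CPM in HF and 100 and 108 CPM in LF. Slc19a1, the reduced folate carrier, was at 25 and 23.4 CPM in HF and 16.4 and 10.3 CPM in LF. Among 26 purine and pyrimidine synthesis genes, 8 lay above and 6 below without overlap, beside the same shares over all genes tested. Their median was -0.05 (0 against LF replicate 1 and 0.03 against LF replicate 2).

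Ribosomal proteins did not all lie on one side. In the large subunit, 28 of 49 tested genes had both HF libraries above both LF libraries and 7 both below (median 0.35), and in the small subunit 19 of 34 lay above and 7 below (median 0.24). The medians were 0.38 and 0.32 against LF replicate 1, and 0.19 and 0.14 against LF replicate 2. Without the GC trend, 6 large and 10 small subunit genes were called higher and 1 of each lower. Rplp1, a protein of the ribosomal stalk, was at 259 and 215 CPM in HF and 85.5 and 72.3 CPM in LF, with MF at 320 and 348 CPM, so LF stood apart from both other doses (1.59 ± 0.194 SE for HF against LF, adjusted p = 0.132, and 0.0145 with the GC trend removed). Rps26 was at 265 and 220 CPM in HF and 113 and 116 CPM in LF. In contrast, Rpl22l1, a paralog of Rpl22, was at 73.4 and 61.5 CPM in HF and 115 and 212 CPM in LF, and Rps24 at 570 and 498 CPM in HF and 745 and 1108 CPM in LF, both called lower with the GC trend removed (adjusted p = 0.00909 and 0.0278). Median GC content was 51.6% in the large subunit list and 43.5% and 43.2% in Rpl22l1 and Rps24, and the part of GC content in this split was not tested beyond the trend-removed values. Many ribosomal protein genes have near-identical pseudogenes, which makes single members uncertain, and Rps12, with 24 named pseudogenes, was at 134 and 85.8 CPM in HF and 28.5 and 0 CPM in LF.

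Translation factors had 20 of 52 members above and 6 below without overlap (median 0.09, 0.25 against LF replicate 1 and 0.06 against LF replicate 2). Eif4ebp1, the repressor of cap binding and itself an ATF4 target, was at 233 and 190 CPM in HF and 113 and 95.5 CPM in LF, and was called higher with the GC trend removed (adjusted p = 0.0112). Eif6, which keeps the ribosomal subunits apart, was at 146 and 157 CPM in HF and 77.9 and 54.7 CPM in LF. Paip1, which binds the poly(A)-binding protein and is not on that list, went the other way, at 162 and 147 CPM in HF and 278 and 338 CPM in LF.

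Respiratory chain subunits encoded in the nucleus also lay on both sides. Of 42 genes of complexes II to V, 18 lay above and 13 below without overlap (median 0.06, 0.10 against LF replicate 1 and 0.05 against LF replicate 2), and 4 were called higher and 6 lower with the GC trend removed. In complex III, Uqcr11 was at 65.6 and 46.5 CPM in HF and 19 and 14.6 CPM in LF, and Uqcrq at 28.6 and 19.2 CPM in HF and 6.60 and 5.27 CPM in LF. In complex IV, Cox5a was at 108 and 102 CPM in HF and 170 and 197 CPM in LF. The 37 tested genes of complex I had 17 above and 7 below (median 0.13, 0.27 against LF replicate 1 and 0.08 against LF replicate 2). mRNAs of the mitochondrial genome, which cytosolic ribosomes do not translate, took 0.578% and 0.299% of counts in HF and 0.488% and 0.943% in LF. Over the 12 tested, the median difference was -0.74 against both LF libraries, -0.17 against LF replicate 1 and -1.13 against LF replicate 2. One of these, mt-Nd3, was at 0 in the HF and the LF libraries, and without it the medians over 11 were -0.86 against both, -0.33 against LF replicate 1 and -1.17 against LF replicate 2. Among them mt-Atp6 was at 52.2 and 26.5 CPM in HF and 125 and 201 CPM in LF, without overlap, while mt-Co1 overlapped, at 3919 and 2348 CPM in HF and 3150 and 6416 CPM in LF.

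Glycolysis enzymes had a median of 0.54, with 12 of 21 tested above and 0 below without overlap. The median was 0.29 against LF replicate 1 and 0.74 against LF replicate 2, and 4 genes were called higher with the GC trend removed (median 0.39). Hk2, which phosphorylates glucose, was at 63.5 and 75.9 CPM in HF and 34.1 and 36.5 CPM in LF, and Slc2a1, the glucose importer, at 83.4 and 106 CPM in HF and 59 and 34.8 CPM in LF. Gapdh overlapped between the doses, at 1042 and 1258 CPM in HF and 1113 and 697 CPM in LF. Proteasome subunits had 17 of 34 above and 3 below (median 0.14, 0.18 against LF replicate 1 and 0.11 against LF replicate 2), led by Psmb5, a catalytic subunit, at 303 and 320 CPM in HF and 151 and 111 CPM in LF. The 6 tested genes of the metallothionein and zinc list had 3 above and 0 below (median 0.42, 0.40 against LF replicate 1 and 0.59 against LF replicate 2).

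Extracellular matrix genes had 27 of 56 tested above and 1 below without overlap, with a median of 0.42 (0.24 against LF replicate 1, 0.53 against LF replicate 2), and 9 were called higher and 1 lower with the GC trend removed. Lamb1, a laminin chain, was at 584 and 684 CPM in HF and 331 and 288 CPM in LF (1.03 ± 0.194 SE, adjusted p = 0.167, and 0.0161 with the GC trend removed). Among 20 mural and mesenchymal markers, 15 were tested, of which 5 lay above, 3 below (Mylk, Lum and Twist1) and 7 overlapped, with a median of 0.03 (-0.22 against LF replicate 1, 0.45 against LF replicate 2). Of the 5 above, Tagln and Acta2 encode proteins of contractile cells. Tagln was at 235 and 276 CPM in HF and 123 and 125 CPM in LF, and Acta2 at 371 and 441 CPM in HF and 272 and 193 CPM in LF. Total mRNA of both lay the other way, for Acta2 at 26.7 and 35.9 CPM in HF and 46.2 and 53.2 CPM in LF. The difference of Acta2 between the fractions did not pass (edgeR interaction, adjusted p = 0.0694). The summed level of the 20 mural and mesenchymal markers was 1631 and 1890 CPM in HF and 1615 and 1207 CPM in LF, and the part of such cells in these values was not tested.

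**Figure D4:**
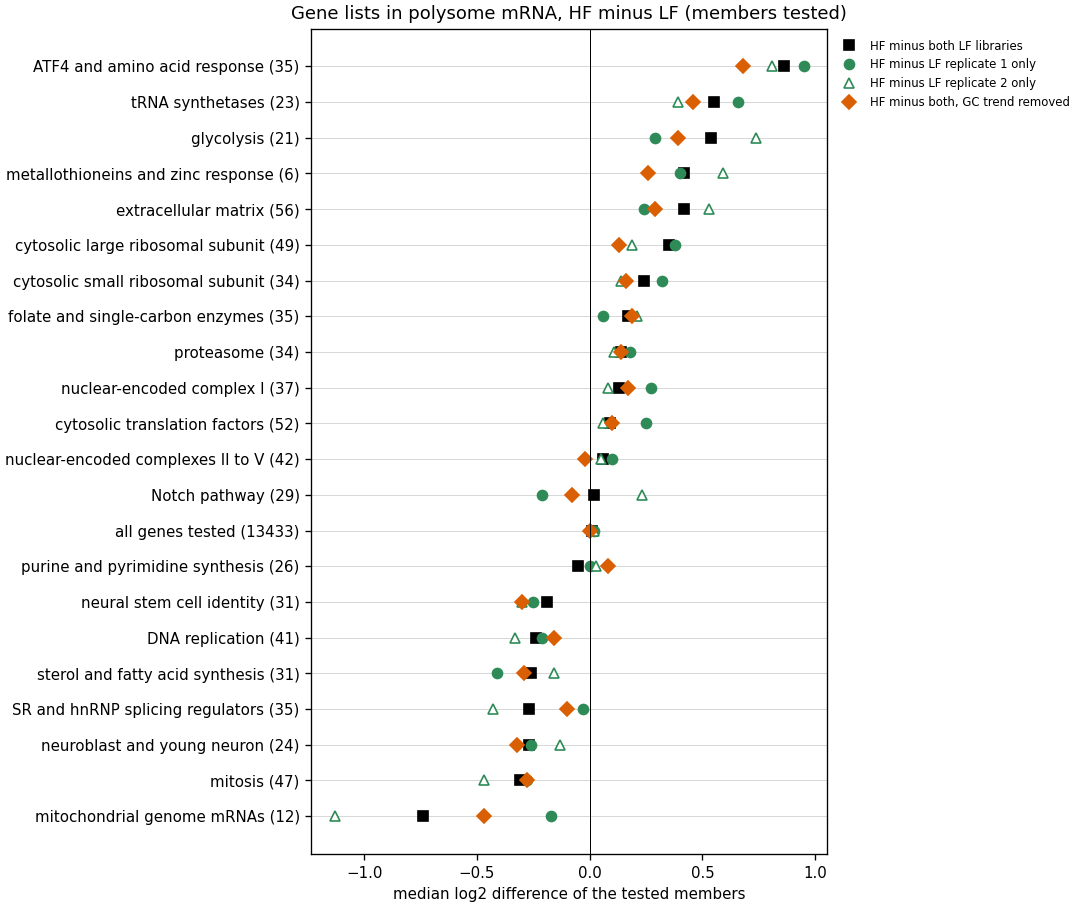
Median log2 difference (x axis) of the tested members of 21 gene lists and of all genes tested, for HF minus both LF libraries (black squares), minus LF replicate 1 (green circles), minus LF replicate 2 (open triangles) and with the GC trend removed (orange diamonds). The medians run from 0.86 for the ATF4 list to -0.74 for mRNAs of the mitochondrial genome, and for the Notch pathway those against the single LF libraries lie on either side of 0 (-0.21 and 0.23).

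On the lower side, mitosis genes had 16 of 47 tested below and 0 above without overlap, with a median of -0.31 (-0.28 against LF replicate 1, -0.47 against LF replicate 2). None passed in the main fit, 14 had an unadjusted p under 0.05 and 8 were called lower with the GC trend removed. Ccna2, cyclin A2, was at 94.4 and 106 CPM in the HF libraries and 242 and 243 CPM in the LF libraries, with MF at 134 and 128 CPM. The LF values were nearly equal and the groups did not overlap (-1.28 ± 0.176 SE, adjusted p = 0.132, and 0.00597 with the GC trend removed). Spc25, a kinetochore protein, was at 55.5 and 52.8 CPM in HF and 99.7 and 165 CPM in LF, and Mad2l1, a spindle checkpoint protein, at 68.3 and 76.8 CPM in HF and 135 and 174 CPM in LF. Total mRNA of Ccna2 was 321 and 316 CPM in HF and 315 and 330 CPM in LF, which overlapped. Among 41 tested DNA replication genes, 18 lay below and 2 above (median -0.24, -0.21 against LF replicate 1 and -0.33 against LF replicate 2), led by Tipin, a replication fork protein, at 36.5 and 32.9 CPM in HF and 60.2 and 88.7 CPM in LF.

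Genes of NSC identity had 12 of 31 tested below and 3 above without overlap, with a median of -0.19 (-0.25 against LF replicate 1, -0.30 against LF replicate 2), and 9 were called lower and 0 higher with the GC trend removed. Among these were the transcription factor genes Sox1, Sox2, Sox9, Sox21, Hes1, Olig2 and Nr2e1. Id4, an inhibitor of transcription factors that does not itself bind DNA, was at 6.71 and 6.83 CPM in HF and 19.1 and 16.8 CPM in LF. Sox21 was at 28.5 and 27.2 CPM in HF and 71.3 and 52.8 CPM in LF, and Sox1 at 70.1 and 70.7 CPM in HF and 134 and 119 CPM in LF. In Id4, Sox21 and Sox1 the HF libraries lay close together and below both LF libraries. Of the defining markers, Nes overlapped and Vim, vimentin, was at 2778 and 3015 CPM in HF and 3447 and 3575 CPM in LF.

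Of 24 tested neuroblast and young neuron genes, 10 lay below and 5 above without overlap (median -0.27, -0.26 against LF replicate 1 and -0.13 against LF replicate 2). Dlx1, a homeobox factor of interneuron precursors, was at 16.8 and 17.1 CPM in HF and 35.5 and 37.7 CPM in LF, and was called lower with the GC trend removed (adjusted p = 0.0108). Stmn1, a microtubule regulator of dividing and young neural cells, was at 463 and 409 CPM in HF and 799 and 639 CPM in LF. Tubb3, the tubulin of neurons, lay the other way, at 50.2 and 54 CPM in HF and 30.5 and 20 CPM in LF. The summed level of the 32 listed markers was 1095 and 1041 CPM in HF and 1422 and 1390 CPM in LF. The most abundant tested members, Stmn1, Ncam1 and Cd24a, weigh most in this sum, which does not stand for each marker. Cd24a was at 141 and 124 CPM in HF and 212 and 281 CPM in LF. Ncam1 lay the other way, at 295 and 314 CPM in HF and 200 and 227 CPM in LF.

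**Figure D5:**
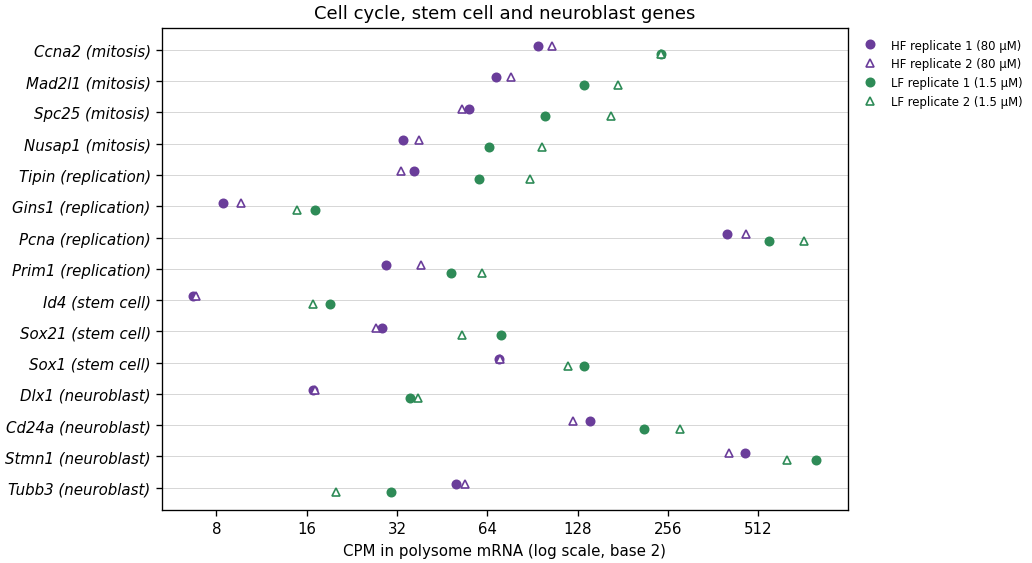
CPM in polysome mRNA (log axis) of members among the 4 with the smallest p-values of the mitosis, DNA replication, NSC identity and neuroblast lists, with HF in purple and LF in green, circles for replicate 1 and triangles for replicate 2. The groups do not overlap in any of the genes plotted, and HF lies lower in each but Tubb3 (50.2 and 54 CPM in HF against 30.5 and 20 CPM in LF).

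SR and hnRNP splicing regulators had 13 of 35 members below and 2 above without overlap. Their median was -0.27 against both LF libraries, -0.03 against LF replicate 1 and -0.43 against LF replicate 2, so the list lay near 0 against LF replicate 1. Srsf2 was low against both, at 88.1 and 77.8 CPM in HF and 235 and 182 CPM in LF (-1.33 ± 0.203 SE, adjusted p = 0.148, and 0.00407 with the GC trend removed), as was Hnrnpa0, at 97.1 and 102 CPM in HF and 191 and 189 CPM in LF. Sterol and fatty acid synthesis genes had 14 of 31 below and 1 above (median -0.26, -0.41 against LF replicate 1 and -0.16 against LF replicate 2), led by Idi1, which makes the isoprenoid building block, at 51.3 and 55.3 CPM in HF and 90.3 and 120 CPM in LF, and 4 were called lower with the GC trend removed. In the Notch pathway 5 of 29 lay below and 3 above, where 19.9% and 21.7% did so over all genes tested. The Notch median was 0.02 (-0.21 against LF replicate 1 and 0.23 against LF replicate 2).

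Among the other leading genes on the lower side, Mest, an imprinted gene of growing mesoderm, was at 684 and 632 CPM in HF and 1366 and 1128 CPM in LF. Sumo2, a protein tag, was at 232 and 195 CPM in HF and 397 and 562 CPM in LF. Gm10273, annotated as a protein-coding gene of unknown role, was at 2.93 and 8.14 CPM in HF and 42.8 and 72.2 CPM in LF, with MF at 1.56 and 1.4 CPM, the largest difference of the 24 (-3.38 ± 0.501 SE, adjusted p = 0.142). On the higher side, G0s2, an inhibitor of fat breakdown, was at 40.5 and 35.5 CPM in HF and 8.21 and 11.2 CPM in LF, and Elob, elongin B, at 171 and 151 CPM in HF and 66 and 60.3 CPM in LF. Elob has a GC content of 61.1%, and its difference was 1.35 in the main fit and 0.70 with the GC trend removed (adjusted p = 0.21).

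The study followed 3 genes by western blot. It picked them by translation efficiency of LF or HF against MF, a measure and a comparison unlike the one made here. Ndufa13, a complex I subunit, was at 126 and 101 CPM in HF and 66.3 and 57.3 CPM in LF, without overlap, with MF at 163 and 146 CPM (0.88 ± 0.205 SE, adjusted p = 0.191). Its difference was 0.28 without the GC trend (adjusted p = 0.563). Gng11, a G protein gamma subunit, was at 9.96 and 8.46 CPM in HF and 14.8 and 22.1 CPM in LF, with MF at 7.38 and 6.57 CPM (-1 ± 0.296 SE, adjusted p = 0.236, and 0.033 with the GC trend removed). Ptx3, a secreted pattern recognition protein, overlapped between HF and LF, at 6.60 and 7.47 CPM in HF and 7.42 and 5.39 CPM in LF. Its MF libraries lay below both, at 2.81 and 2.80 CPM. Among 15 genes of RNA cytosine methylation, 4 lay above and 2 below without overlap, where 21.7% and 19.9% did so over all genes tested. The median of these 15 was 0.02 (0.33 against LF replicate 1 and -0.08 against LF replicate 2). Nop2, a nucleolar rRNA methyltransferase, was at 130 and 160 CPM in HF and 82.6 and 69.9 CPM in LF, and Nsun2, the main mRNA m5C methyltransferase, at 229 and 280 CPM in HF and 183 and 211 CPM in LF (0.37 ± 0.188 SE, adjusted p = 0.427).

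The genes called with the GC trend removed differed in coding length between directions. Median coding length was 1467 bases in the 465 called higher that have one, 936 bases in the 495 called lower and 1422 bases over all genes tested, and median GC content was 51.5% in those called higher, 50.4% in those called lower and 49.6% over all. At an unadjusted p under 0.05 in the main fit, the median GC content was 53.9% in genes that lay higher and 45.8% in genes that lay lower.

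Of 7469 protein-coding genes at 20 CPM or more, 1060 (14.2%) differed by more than 2-fold between the LF replicates and 8 (0.107%) between the HF replicates. Ltbp4, a matrix protein with 62.2% GC, was at 31.1 and 31.7 CPM in HF and 21.2 and 4.16 CPM in LF. Lrp1, a large endocytic receptor with 57.9% GC, was at 83.4 and 117 CPM in HF and 111 and 27.4 CPM in LF. At the other end, Larp4, an RNA-binding protein with 38.7% GC, was at 70.4 and 74 CPM in HF and 41.5 and 109 CPM in LF. LF replicate 1 was nearer than LF replicate 2 to HF for Ltbp4 and Lrp1, and the LF replicates lay on either side of HF for Larp4.

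The difference between HF and LF was tested against the same difference in total mRNA, over all 12 libraries. Of 14421 genes, 14 (0.0971%) differed between the fractions, 11 higher (0.0763%) and 3 lower (0.0208%) in HF polysomes relative to total mRNA. Protein-coding members included Rplp1, Wars, Elob, Uqcr11, Tagln and Fbln5 on the higher side and Ccna2 and Srsf2 on the lower side. For Tagln the fractions ran opposite ways: total mRNA was at 18.9 and 23.1 CPM in HF and 28 and 33.4 CPM in LF, while polysome mRNA was at 235 and 276 CPM in HF and 123 and 125 CPM in LF. For Ccna2 total mRNA overlapped between the doses, as given above. Once the GC trend was removed 942 genes differed between the fractions, 509 higher and 433 lower. Leaving out HF replicate 1 gave 2 genes and leaving out HF replicate 2 gave 6, while the fit with LF replicate 2 as the lone LF polysome library gave 5576 and that with LF replicate 1 gave 2550.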

How the data were processed

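The authors deposited one gene table per library with expected counts, TPM and FPKM. Per the labels and the methods of the study, read pairs were trimmed, aligned to mm10 with Bowtie2 2.2.9 and quantified per gene by RSEM 1.3.0, which shares a read that fits several genes by likelihood. The expected counts as deposited need not be whole (4.04% to 4.98% of values in a polysome library were not) and were rounded here. TPM, a deposited length-scaled value of the authors, was used only to correlate replicates (Pearson r of log2 TPM + 1 across tested genes 0.992 in HF and 0.964 in LF). The deposited FPKM of the authors and the effective length, an other value, were not used. No source used here states the strand setting of RSEM, so genes that overlap a gene on the opposite strand are uncertain, among those named Ddit3, Wars, Ppp1r15a, Shmt2, Srsf2, Elob, Tagln, Ccna2, Id4, Rpl22l1, Sars, Hk2, Slc19a1, Slc7a11, Slc2a1, Psat1, Aldh1l2, Cox5a, Mest, G0s2, Dlx1, Sox21, Idi1, Ndufa13, Ptx3, Nsun2, Eif6, Lrp1, Larp4 and Gapdh. So are genes with named pseudogenes, such as Rplp1, Rps12, Rps24, Rps26, Psmb5, Phgdh, Hmgb3, Tyms and Gapdh.

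Symbols, positions and coding lengths came from GENCODE M21, which matched 42548 of 43432 identifiers. GC content is that of the longest transcript. edgeR 4.0.16 in R 4.3.3 was run on the 6 polysome libraries of all 3 doses (TMM, filterByExpr, robust quasi-likelihood F test, 3 residual degrees of freedom), and on all 12 libraries for the comparison with total mRNA. All adjusted p-values are Benjamini-Hochberg values of edgeR over all genes tested unless another tool is named. Each SE was derived from the log2 difference and the F statistic of its test. No source used here names molecular identifiers, and the sampling error of the counts understates the full error. The chi-square per degree of freedom between replicates was 22.4 in HF and 135 in LF, so no library was a repeat of another.

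The alternatives were RLE scaling, other filters, DESeq2 1.42.0, limma 3.58.1 voom, a replicate block, other fold limits, and each library left out. Removal of trends of GC (loess, span 0.4), length or coding length, and the fit of polysome HF against LF over all 12 libraries, were chosen after seeing the data. The 45 gene lists, the members and the tests were chosen with earlier results of these data known. Named were up to 12 protein-coding genes per direction (at least 5 CPM, no overlap, smallest p), the western blot genes, up to 4 members per list with the smallest p, and genes on which the LF replicates differed most. Other genes were named after their values were seen, and some genes that the rule picks are not reported here. The fits were tested on simulated data.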

Additional observations from a re-analysis of the deposited data

Results flagged for a closer look

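In 14 genes the difference of HF against LF was not the same in polysome as in total mRNA, by edgeR's test of the interaction over 12 libraries with 2 in each group. The adjusted p was 6.47e-06 for Prss23os and 0.000284 for Gm8203, the noncoding genes with no count in either LF polysome library. Among the others it was 0.0363 for Ccna2, 0.0411 for the processed pseudogene Gm6851, 0.0466 for each of Tagln, Wars, Rplp1 and Srsf2, 0.0483 for each of the pseudogene Rpl37rt, Fbln5, Elob and the long noncoding RNA Gm26880, and 0.0492 for Uqcr11. With the GC trend removed, the adjusted p was 0.00352 for Ccna2, 0.00403 for Tagln, 0.0182 for Rplp1 and 0.275 for Elob, which was then not called. Wars had 98.1 and 97.2 CPM in HF and 94.3 and 94.9 CPM in LF in total mRNA, and Fbln5 had 14.3 and 19.9 CPM in HF and 32.8 and 37.3 CPM in LF there.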

How the results depend on the processing

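The count of 2 genes called in polysome HF against LF was 2 with RLE scaling, a count minimum of 50, no robust step, only the 4 compared libraries, a removed length trend and fold limits of none or 2. It was 242 with no filter, 335 with DESeq2, 4 with limma voom, 9 with voom and sample weights, and 0 with the coding length trend removed, a fit that leaves out genes with no coding sequence, as both called genes are (edgeR, 1732 of 12587 genes at an unadjusted p under 0.05). It was 1320 in a fit of all 12 libraries and 1001 with the GC trend removed. Leaving out one library gave 2 to 5438 (5438 without LF replicate 1, 2117 without LF replicate 2), and with the GC trend removed 2034 without LF replicate 1 and 2284 without LF replicate 2.

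Whether the replicate numbers pair the libraries was not settled. Deviations of same-numbered replicates correlated at 0.03 between LF and HF, 0.13 between LF and MF and -0.1 between MF and HF across 13433 genes. The LF deviations ran along GC content, and the GC trend was not removed here, so these correlations cannot decide on a pairing. With the replicate number as a block the count was 41 (0.305%), and 1159 with the GC trend removed as well. For polysome against total mRNA the block gave 3 genes.

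The count of 14 genes for polysome against total mRNA was 39 with RLE, 187 with no filter, 699 with DESeq2, 2 with only the 8 HF and LF libraries and 942 with the GC trend removed. Leaving out one library gave 2 to 5576 (2550 to 5576 when it was an LF library, 2 to 6 when it was an HF library). The cause of these moves was not tested.

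Of 131 genes followed, 90 were newly called with the GC trend removed, 70 with DESeq2, 66 with no filter and 22 with the replicate block. None was lost, but the main fit called only 2 genes, so almost none had a call to lose. Many of the genes followed were picked for a small p, some also for no overlap between HF and LF. Few changes of sign were therefore likely from the selection alone. The log2 difference changed sign without LF replicate 2 for Ptx3 (-0.077, and 0.357 without LF replicate 1) and Slc30a1 (0.071, and -0.478 without LF replicate 1). With the GC trend removed it did so without LF replicate 1 for Ndufa13 (-0.14), Nme2 (-0.041) and Atf4 (-0.30), and without LF replicate 2 for Ptx3 (-0.042). GC-rich and GC-poor genes are those for which HF against LF depends most on the LF library used.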
